A study of Mus musculus with 6 samples.

Results

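The genes of oxidative phosphorylation are those whose proteins build the respiratory chain and the ATP synthase of the inner mitochondrial membrane. They were taken by symbol from the array's annotation, as every probe set with 1 gene symbol beginning with Nduf and a letter a, b, c, s or v, with Uqcr, Cox4 to Cox8 or Atp5, or equal to Sdha, Sdhb, Sdhc or Sdhd. This gave 90 genes of the 18193 with 1 symbol, on 179 probe sets, and a gene was represented by its brightest probe set over all 6 arrays. Of the 90, 82 encode subunits or their isoforms, 34 of complex I, 4 of complex II, 8 of complex III, 19 of complex IV and 17 of complex V. The other 8, Ndufaf1 to Ndufaf8, fit the symbol pattern but encode assembly factors, and they are described apart. Ndufa4 and Ndufa4l2 were counted with complex IV, to which the Ndufa4 protein is now assigned.

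RNA came from mouse embryonic eyes without their anterior segments, taken 15.5 days post coitum from 3 wild-type (WT) dams and 3 dams lacking Oa1. The gene, named Gpr143 on the array, makes a receptor that pigment cells carry on their melanosomes. Each array was a pool of the eyes of 6 embryos of 1 dam, and the values are MAS5 signals on a linear scale. The sources used here do not give the strain, the embryos' sexes or how much of the gene was deleted.

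Oxidative phosphorylation passes electrons from NADH through complex I, or from succinate through complex II, by way of ubiquinone to complex III, then by cytochrome c to complex IV, where oxygen is reduced. Complexes I, III and IV pump protons, and complex V lets them flow back to make ATP. Most subunits are encoded in the nucleus and a few in the mitochondrial genome, except that complex II is wholly nuclear. The developing retina combines glycolysis with respiration, and its young neurons and pigment epithelium are rich in mitochondria.

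The arrays followed their labels for the targeted gene. Gpr143 (1420581_at) read 250, 257 and 246 on the WT arrays against 28.3, 39.1 and 6.02 on the Oa1-/- arrays. Oa1-/- replicate 1 dominated the first principal component (46.0% of the variance) and WT replicate 3 the second (18.7%). On WT replicate 3 the Y-linked Eif2s3y read 9.26 against 406 to 805 on the others. Kdm5d (13.5 against 377 to 736) and Uty (14.4 against 189 to 250), also Y-linked, were low there too. That pool thus gave little or no Y-linked signal, unlike the others. Markers of the retina were well above the highest bacterial control (13.8 to 39.3 over the arrays), and so were those of the lens, although the anterior eye had been removed. The summed signal of 9 retinal marker genes (of 11 listed) was 45939 to 51059 in WT and 52950 to 54567 in Oa1-/-, without overlap. Atoh7 and Pax6 were the brightest of the 9. Taken singly, Pax6, Isl1, Stmn2 and Atoh7 separated the groups, while Rax, Six3, Pou4f1, Elavl4 and Crx overlapped. The sums for pigment cells, lens, skeletal muscle, mesenchyme and erythroid cells overlapped. WT replicate 1 had the highest erythroid sum, 22945 against 3505 to 9968 on the other arrays, and the lowest sums for retina, pigment cells, lens, muscle and mesenchyme. Its erythroid sum was mostly Hbb-y (19360) and Hba-x (3132). Alas2 was not raised there, at 437 against 340 to 595 on the other arrays. The 3' control for 18S ribosomal RNA read 1476 to 1988 in WT and 2608 to 6348 in Oa1-/-, highest on Oa1-/- replicate 1. In such bulk samples fewer cells of a type and less RNA per cell cannot be told apart.

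Subunit genes leaned to higher means in Oa1-/-, by small amounts. A log2 change is the Oa1-/- mean minus the WT mean of log2(signal + 16). Of the 82 subunit genes, 79 passed the filter on low signal (a mean above the 40th percentile) and entered the limma fit. Their median log2 change was 0.063, with 64 above 0 and 15 below, while the median over all 12880 genes tested was 0.0025 with 50.8% above 0. The members' changes ran from −0.088 for Cox7a2l to 0.50 for Ndufa4l2. By complex, the medians were 0.067 for I (26 of 33 above 0), 0.063 for II (4 of 4), 0.062 for III (8 of 8), 0.058 for IV (15 of 17) and 0.041 for V (11 of 17). The medians of the complexes thus ran from 0.041 to 0.067. The pooled SD between replicates of a complex's mean log2 signal was 0.082 (complex II) to 0.12 (complex IV). All complexes were read on the same arrays, so variation that they shared would cancel in a difference between them. That SD is therefore no measure of how far apart their changes lay, and differences between complexes were not tested.

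No single subunit gene passed the test. With limma and Benjamini-Hochberg adjustment over all 27022 probe sets tested, 0 of the 79 had an adjusted p below 0.05, and the smallest was 0.985. Over all genes 0% passed as well. The targeted gene Gpr143 did not pass either, with a log2 change of −2.82 (unadjusted p 2.36e-05, adjusted p = 0.318 in limma). A failure to pass is therefore no evidence that a gene did not change. At an unadjusted p below 0.05 there were 3 of the 79, all higher in Oa1-/-, where 3.65% of all genes reached that threshold (1.68% higher and 1.97% lower) and 4.1% of all probe sets did. In 6 of the 79 the genotypes were fully separate, again all higher in Oa1-/-, against 5.47% of all genes in that direction and 5.3% in the other.

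**Figure D1:**
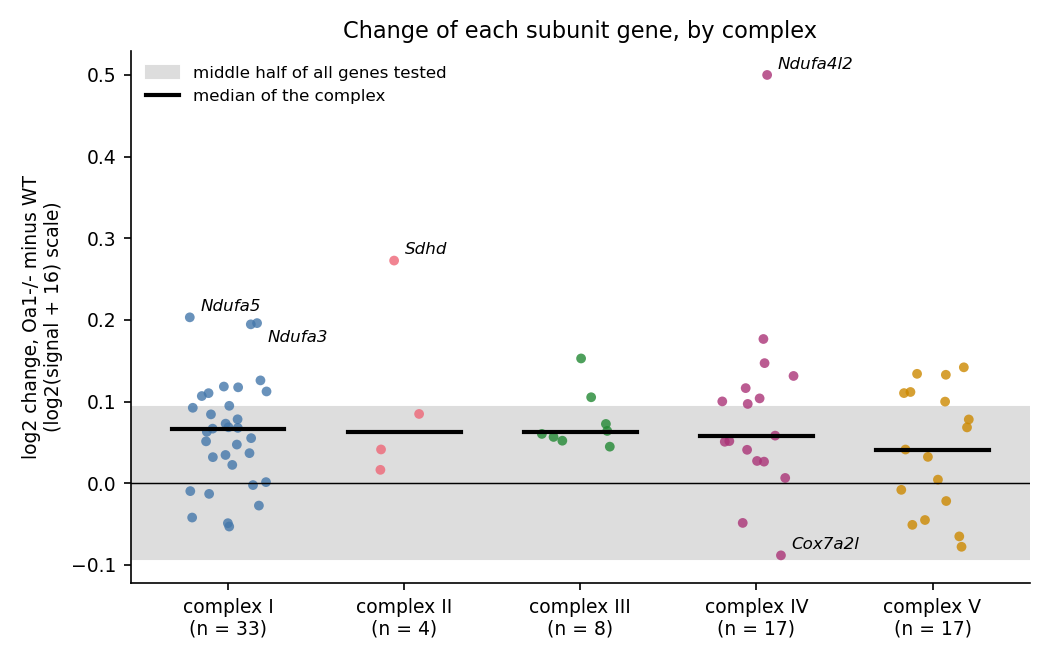
Log2 change (Oa1-/- minus WT, on the log2(signal + 16) scale) of each tested subunit gene, 1 point a gene by its brightest probe set, grouped by complex with the complex's median as a bar; the grey band is the interquartile range of all genes tested. Most points lie above 0, the medians lie between 0.041 and 0.067, and Ndufa4l2, Sdhd, Ndufa5 and Ndufa3 stand highest.

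The lean followed single arrays as much as the genotype. The mean log2 signal of the 79 genes, as a deviation from the mean over the 6 arrays, was −0.12, −0.061 and 0.085 on WT replicates 1, 2 and 3 and 0.14, 0.0091 and −0.046 on Oa1-/- replicates 1, 2 and 3. The ranges overlapped, with WT replicate 3 above Oa1-/- replicates 2 and 3. Oa1-/- replicate 1 was the highest array for 50 of the 79 genes and WT replicate 3 for 23, while those arrays were highest for 22.2% and 23.6% of all genes. WT replicate 1 was the lowest array for 44 of the 79, against 23% of all genes. The pattern was not particular to the subunits. Oa1-/- replicate 1 also had the highest summed signal of assembly factors (48971), of electron carriers and ubiquinone synthesis (28646), of mitochondrial regulators (34317) and of citric acid cycle enzymes (58806). The 3' control for Gapdh was lowest on WT replicate 1 (13795) and highest on WT replicate 3 (17857) and Oa1-/- replicate 1 (17885). Oa1-/- replicate 1 had the highest 18S control and the lowest median signal (93.6 against 108 to 129 on the others). WT replicate 1 had the highest erythroid sum, mostly of Hbb-y and Hba-x, and the retinal marker sum was higher on every Oa1-/- array. The part of these in the result was not tested.

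**Figure D2:**
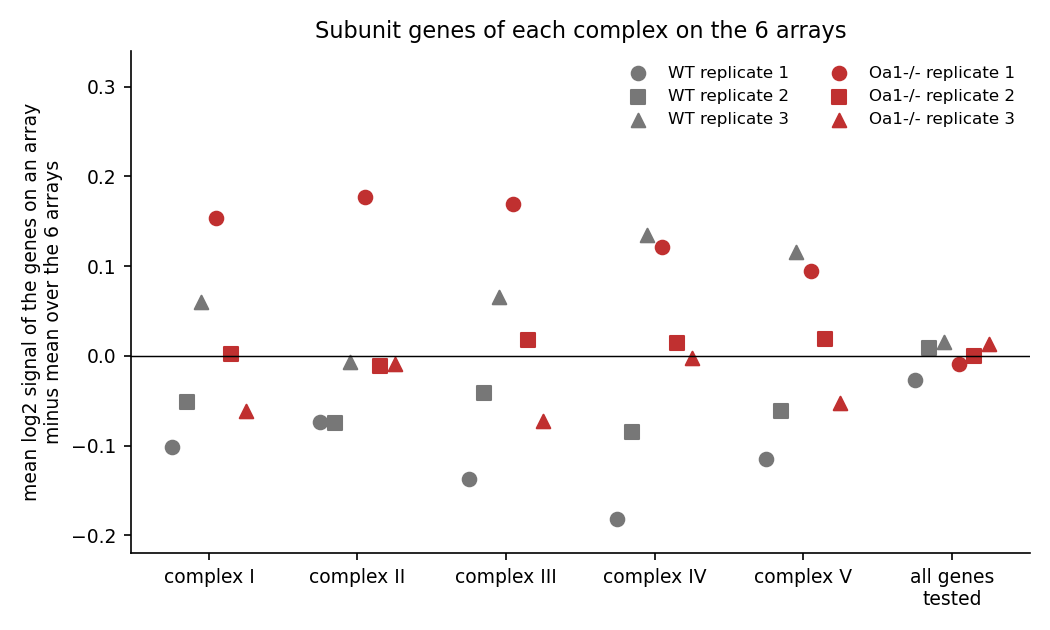
Mean log2 signal of the tested subunit genes of each complex on each array, as the difference from the mean over the 6 arrays, with all genes tested at the right; grey marks WT, red marks Oa1-/-, and shapes mark replicates. Oa1-/- replicate 1 is highest or next to highest in every complex, WT replicate 3 is highest in complexes IV and V, and all genes tested lie close to 0.

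The median over the 79 genes moved with 4 of the 6 arrays when each was left out in turn. Without Oa1-/- replicate 1 the median over the 79 genes was 0.014, with 46 above 0, and without WT replicate 1 it was 0.015, with 45 above 0. Without WT replicate 3 it was 0.13, with 77 above 0, and without Oa1-/- replicate 3 it was 0.10, with 71 above 0. It stayed nearer to its value over all arrays without WT replicate 2 (0.054) and without Oa1-/- replicate 2 (0.072). Without both arrays that led the principal components the median was 0.070, with 62 above 0. The median of complex II turned to −0.021 without Oa1-/- replicate 1, and that of complex IV to −0.012 without WT replicate 1.

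**Figure D3:**
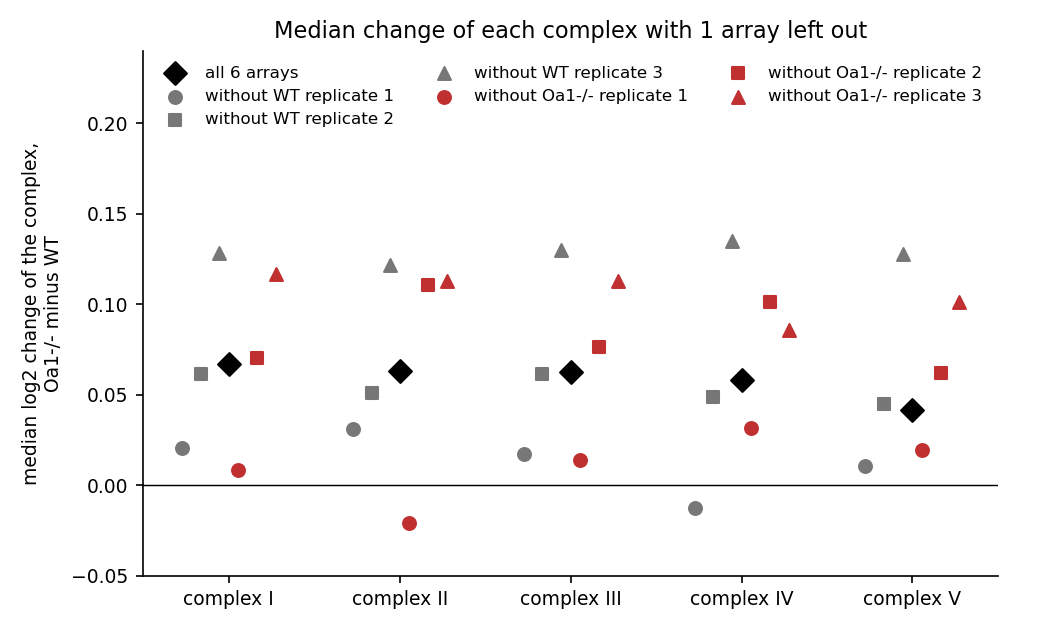
Median log2 change of each complex with all 6 arrays (black diamond) and with 1 array left out (grey for a WT array, red for an Oa1-/- array). Leaving out WT replicate 3 gives medians of 0.12 to 0.14, and leaving out Oa1-/- replicate 1 gives medians from −0.021 to 0.032.

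Nuclear genes of the respiratory chain are known to share promoter motifs, among them those of nuclear respiratory factor 1, of ETS factors such as GABPA, and of YY1. RefSeq promoter windows (build GRCm38.p6, 250 bases before to 50 after a start site) were found for 67 of the 82 subunit genes. Both strands were searched for exact matches. The palindromic nuclear respiratory factor 1 motif, shown in capitals in the Atp5g2 and Atp5k sequences, was present for 4 of the 67 genes (5.97%), the ETS letters CCGGAAGT for 5 (7.46%) and the YY1 letters AAGATGGCG for 6 (8.96%). Over all 27025 genes in the table the shares were 1.07%, 4.31% and 1.64%, and over the 10375 of them with a probe set tested here 2.23%, 8.6% and 3.35%. Of the 6 YY1 matches, 5 began 22 to 35 bases after the start site. The 15 genes with any of the motifs had a median log2 change of 0.073 (14 above 0), and the 49 tested genes with none had one of 0.055 (37 above 0), so both sets leaned the same way. The 100 bases before the start site follow for the genes with a whole match inside them, which lie in complexes III and V, with the match in capitals, 5′ to 3′ along the gene. All are on the minus strand.
Uqcr11, ETS, chr10:80406822-80406921: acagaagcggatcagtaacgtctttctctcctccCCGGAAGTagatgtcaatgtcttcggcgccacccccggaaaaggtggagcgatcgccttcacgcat
Uqcrh, ETS (as its reverse complement), chr4:116075071-116075170: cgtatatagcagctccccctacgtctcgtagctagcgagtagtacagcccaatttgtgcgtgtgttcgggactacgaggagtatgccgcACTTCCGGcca
Atp5h, ETS (as its reverse complement), chr11:115419920-115420019: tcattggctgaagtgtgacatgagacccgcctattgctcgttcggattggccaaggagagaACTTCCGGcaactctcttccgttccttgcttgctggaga
Atp5g2, nuclear respiratory factor 1, chr15:102671048-102671147: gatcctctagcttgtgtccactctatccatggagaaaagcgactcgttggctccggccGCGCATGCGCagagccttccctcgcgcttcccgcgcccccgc
Atp5k, nuclear respiratory factor 1, chr5:108434400-108434499: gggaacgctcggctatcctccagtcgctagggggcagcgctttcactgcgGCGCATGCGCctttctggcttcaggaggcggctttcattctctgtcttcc
Atp5j, YY1, from one of its start sites, chr16:84834977-84835076: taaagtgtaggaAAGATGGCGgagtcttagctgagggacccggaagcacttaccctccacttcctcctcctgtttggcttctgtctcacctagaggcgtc
The matches begin 66, 11, 39, 42, 50 and 88 bases before the start site, in that order. A match describes these letters and does not show that a factor binds there.

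Complex I takes electrons from NADH and is the largest of the complexes. Its core subunits carry the flavin and the iron-sulfur clusters, and its accessory subunits surround the core. Of the 6 core genes tested (Ndufs1, Ndufs3, Ndufs7, Ndufs8, Ndufv1 and Ndufv2), 3 had a change above 0, with a median of 0.026. Of the 27 accessory genes, 23 had a change above 0, with a median of 0.067. The brightest Ndufb4 probe set read 29.0 to 43.5 over the arrays, near the highest bacterial control, and was not tested. Ndufs6 and Ndufa11 have probe sets that the annotation shares with other genes and were not named here.

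Ndufa3, a small accessory subunit, read 6581, 7123 and 7377 on the WT arrays against 7959, 8069 and 8103 on the Oa1-/- arrays. All 3 Oa1-/- arrays lay above all 3 WT arrays, and the log2 change was 0.20 (SE 0.071, unadjusted p 0.0235, adjusted p = 0.985 in limma). Its other tested probe sets had changes of 0.16 (1428464_at) and 0.17 (1430149_at).

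Ndufa5, an accessory subunit of the arm that reaches into the matrix, read 2368, 2284 and 2312 on the WT arrays against 2875, 2627 and 2532 on the Oa1-/- arrays. The groups did not overlap, and the log2 change was 0.20 (SE 0.079, unadjusted p 0.0323, adjusted p = 0.985 in limma). Its other probe set, 1417285_a_at, did not share this, with WT at 1990, 1920 and 2272, Oa1-/- at 2265, 2068 and 1885, and a change of 0.0084.

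Ndufb5, an accessory subunit of the membrane arm, read 5200, 4898 and 4820 on the WT arrays against 6610, 5588 and 4988 on the Oa1-/- arrays. The groups overlapped, because Oa1-/- replicate 3 lay below WT replicate 1. The log2 change of 0.19 (unadjusted limma p 0.102) was 0.087 without Oa1-/- replicate 1. Its other probe set, 1417102_a_at, had a change of 0.21 (unadjusted limma p 0.0418) and groups that did not overlap.

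Ndufs5 had a log2 change of 0.13 (unadjusted limma p 0.180), with signals of 2866, 2842 and 3197 on the WT arrays against 3441, 3270 and 3012 on the Oa1-/- arrays. Oa1-/- replicate 3 lay within the WT range, and the change was 0.082 without Oa1-/- replicate 1. Ndufa1, an X-linked accessory gene, read 11898, 14958 and 15560 on the WT arrays against 15783, 14694 and 13752 on the Oa1-/- arrays, which overlapped widely, and its change of 0.068 turned to −0.052 without WT replicate 1. Ndufc2 read 8157, 8990 and 9328 on the WT arrays against 10556, 9295 and 8453 on the Oa1-/- arrays, a change of 0.092 that was 0.0086 without Oa1-/- replicate 1. Another Ndufc2 probe set, 1416366_at, gave 4546 ± 193 in WT and 5471 ± 631 in Oa1-/- (SD, n = 3; log2 change 0.26, unadjusted limma p 0.0249, adjusted p = 0.985).

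Ndufs8, a core subunit that carries iron-sulfur clusters, was the lowest of complex I at −0.053, with 4789, 5020 and 5909 on the WT arrays against 5269, 5056 and 4775 on the Oa1-/- arrays. WT replicate 3 alone lay above every Oa1-/- array. Its 5 further probe sets differed in sign, with 4 above 0. Among them 1434212_at read 200, 275 and 246 on the WT arrays against 342, 375 and 327 on the Oa1-/- arrays, a change of 0.52 (SE 0.16, unadjusted p 0.0100, adjusted p = 0.985 in limma). The 1423907_a_at probe set went the other way, at −0.16.

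Complex II oxidises succinate and is also an enzyme of the citric acid cycle. Sdhd, which with Sdhc anchors the enzyme in the membrane, had the smallest unadjusted p of the 79 genes. It read 1942, 1852 and 1742 on the WT arrays against 2287, 2151 and 2256 on the Oa1-/- arrays. The groups were separate, with the lowest Oa1-/- array above the highest WT array, and the log2 change was 0.27 (SE 0.080, unadjusted p 0.00860, adjusted p = 0.985 in limma), a 1.21-fold difference on that scale. An exact two-sided permutation test gave 0.1, the lowest p possible with 3 arrays a genotype. With any 1 array left out the change ran from 0.23 (without WT replicate 3) to 0.31 (without WT replicate 1). Its other probe set 1437489_x_at read 279, 288 and 288 on the WT arrays against 322, 284 and 339 on the Oa1-/- arrays, a change of 0.13 with overlap on Oa1-/- replicate 2.

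In the rest of complex II the groups overlapped. Sdha, the flavoprotein that binds succinate, read 4066, 4012 and 4153 on the WT arrays against 4353, 4086 and 3941 on the Oa1-/- arrays (log2 change 0.016). Sdhb, the iron-sulfur subunit, read 5726, 6134 and 6242 on the WT arrays against 7690, 6029 and 5644 on the Oa1-/- arrays (log2 change 0.085). Its difference lay in Oa1-/- replicate 1, without which the change was −0.048. Sdhc read 1551, 1537 and 1873 on the WT arrays against 1847, 1576 and 1674 on the Oa1-/- arrays (log2 change 0.041), within the WT range on every Oa1-/- array. Its further probe set 1435986_x_at had a change of 0.18. The further tested probe sets of Sdha had changes of −0.076 (1426689_s_at) and 0.036 (1433293_at), and the groups overlapped on each of these probe sets. Without Oa1-/- replicate 1, 1 of the 4 complex II genes had a change above 0.

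**Figure D4:**
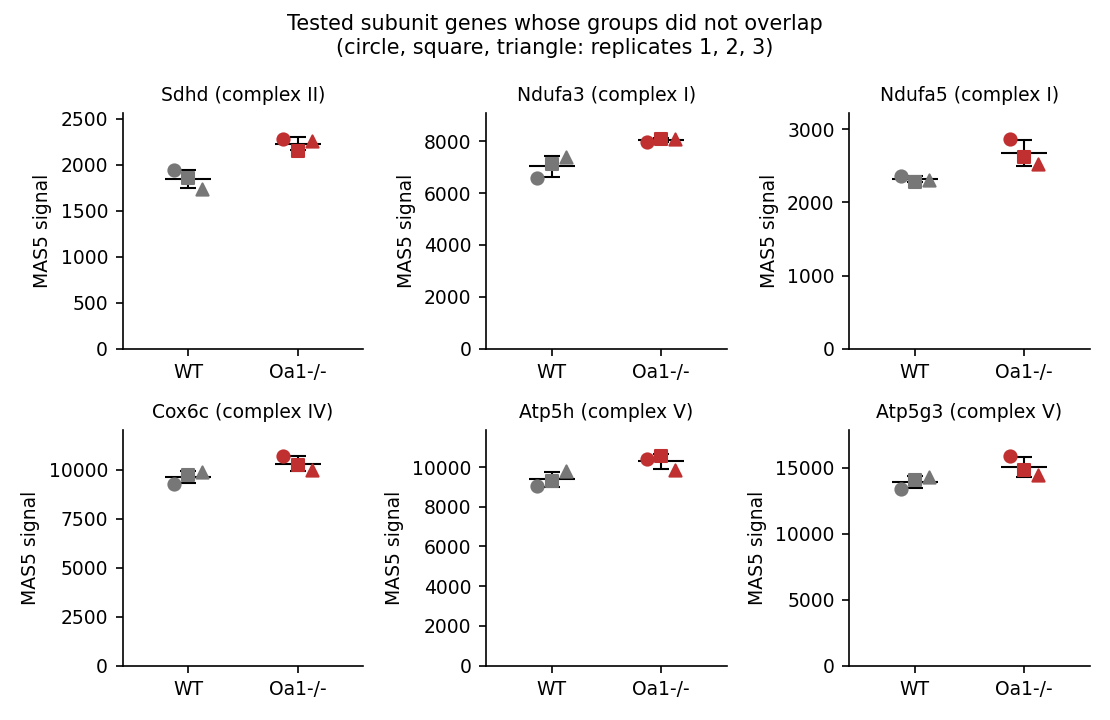
MAS5 signal (axis from 0) of the 6 tested subunit genes whose groups did not overlap, with 1 point an array (circle, square and triangle for replicates 1, 2 and 3), the group mean as a dash and the SD (n = 3) as a bar. Every Oa1-/- array lies above every WT array in each panel, and the differences are small beside the signal, 0.097 to 0.27 on the log2 scale.

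Complex III hands electrons from ubiquinol to cytochrome c. All 8 of the genes taken by symbol were tested and had a change above 0, from 0.045 for Uqcrc2 to 0.15 for Uqcrfs1. In 0 of these 8 were the groups free of overlap. The symbol pattern does not match Cyc1, which encodes cytochrome c1 of this complex. Its log2 change was −0.026 (1416604_at), with overlapping groups. Uqcrfs1, the Rieske iron-sulfur protein, read 3639, 3702 and 3498 on the WT arrays against 4638, 3844 and 3636 on the Oa1-/- arrays. Oa1-/- replicate 3 lay within the WT range, and without Oa1-/- replicate 1 the change was 0.050.

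The small complex III subunits gave the same picture of overlap. Uqcrq read 3053, 3324 and 3609 on the WT arrays against 3814, 3693 and 3241 on the Oa1-/- arrays (log2 change 0.11). Uqcrh, the hinge protein, read 6135, 6479 and 6711 on the WT arrays against 7240, 6786 and 6206 on the Oa1-/- arrays (log2 change 0.064). Uqcr11 read 3642, 3662 and 4605 on the WT arrays against 4447, 4037 and 3981 on the Oa1-/- arrays (log2 change 0.073). In these genes the groups overlapped, and single arrays moved the changes: Uqcr11 ran from 0.015 without WT replicate 1 to 0.18 without WT replicate 3. Uqcrh ran from 0.012 without Oa1-/- replicate 1 to 0.12 without Oa1-/- replicate 3, and Uqcrq from 0.045 without WT replicate 1 to 0.18 without Oa1-/- replicate 3. Uqcrb read 17705, 19158 and 21446 on the WT arrays against 21329, 20196 and 19005 on the Oa1-/- arrays, and its change of 0.057 turned to −0.0083 without WT replicate 1. On the 7 further probe sets of complex III genes, 4 changes were above 0 and 3 below.

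Complex IV, cytochrome c oxidase, reduces oxygen. The mitochondrial genome encodes its catalytic core, and the nuclear genes on the array encode the subunits around it, several with isoforms that mark particular tissues. Of the 11 tested genes outside the tissue isoforms, 10 had a change above 0, with a median of 0.052. Cox6c read 9301, 9752 and 9888 on the WT arrays against 10725, 10256 and 9983 on the Oa1-/- arrays. Its groups did not overlap, with a log2 change of 0.097 (SE 0.067, unadjusted p 0.186, adjusted p = 0.985 in limma). Ndufa4 read 7967, 8691 and 8077 on the WT arrays against 9955, 9193 and 8303 on the Oa1-/- arrays (log2 change 0.15, unadjusted limma p 0.121), with Oa1-/- replicate 3 inside the WT range and a change of 0.084 without Oa1-/- replicate 1.

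Other subunits of complex IV that most cells make did not separate the groups. Cox8a read 4214, 4602 and 5368 on the WT arrays against 5418, 5254 and 4810 on the Oa1-/- arrays (log2 change 0.13). Cox4i1 read 10528, 11520 and 12921 on the WT arrays against 12810, 11742 and 11766 on the Oa1-/- arrays (0.058). Cox6a1 read 16458, 19090 and 19106 on the WT arrays against 19937, 18662 and 16356 on the Oa1-/- arrays (0.0066). WT replicate 1 was the lowest or next to lowest array for each of them. Cox6b1 had a change of 0.027 and Cox7a2 one of 0.052, and without WT replicate 1 both turned negative, at −0.053 and −0.032, as did Cox4i1 at −0.012 and Cox6a1 at −0.065. The Cox8a change ran from 0.052 when WT replicate 1 was left out to 0.23 when WT replicate 3 was. Without WT replicate 1, 8 of the 17 tested complex IV genes had a change above 0.

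Cox7a2l, whose protein joins complexes III and IV into supercomplexes, was the lowest of all 79. It read 3944, 4314 and 5083 on the WT arrays against 4815, 3654 and 4089 on the Oa1-/- arrays, a log2 change of −0.088 with wide overlap. Without WT replicate 3 the change was 0.012.

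Of the isoforms of restricted tissues, Ndufa4l2, a paralogue of Ndufa4 known to respond to hypoxia, had the highest change of all members tested, 0.50 (SE 0.22, unadjusted p 0.0531, adjusted p = 0.985 in limma). It read 349, 500 and 678 on the WT arrays against 817, 635 and 666 on the Oa1-/- arrays, so that WT replicate 3 lay above Oa1-/- replicates 2 and 3. The change ran from 0.26 without WT replicate 1 to 0.73 without WT replicate 3. Cox4i2, the isoform of Cox4i1 known from lung, read 92.3, 103 and 160 on the WT arrays against 143, 107 and 112 on the Oa1-/- arrays (log2 change 0.051).

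The isoforms of heart and skeletal muscle are Cox6a2, Cox7a1 and Cox8b. Cox6a2 read 158, 216 and 294 on the WT arrays against 329, 181 and 220 on the Oa1-/- arrays, high on Oa1-/- replicate 1 and WT replicate 3 and low on WT replicate 1. The summed signal of 8 skeletal muscle markers (8 of 8 on the array, none at 0) was 4949, 10600 and 15215 on the WT arrays against 15193, 6516 and 10180 on the Oa1-/- arrays, with the same arrays high and low. The part of muscle tissue in the Cox6a2 values was not tested. Its change of 0.12 became 0.32 without WT replicate 3 and −0.11 without Oa1-/- replicate 1. Cox7a1 read 69.1, 75.0 and 108 on the WT arrays against 69.3, 94.9 and 75.7 on the Oa1-/- arrays (log2 change −0.048), and Cox8b read 3.57 to 69.3 over the arrays and was not tested.

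The isoforms known from testis are Cox6b2, Cox7b2 and Cox8c. Cox6b2 read 869, 761 and 783 on the WT arrays against 898, 853 and 835 on the Oa1-/- arrays (log2 change 0.10), with WT replicate 1 inside the Oa1-/- range. Cox8c read 245, 180 and 235 on the WT arrays against 206, 256 and 290 on the Oa1-/- arrays (log2 change 0.18). Its groups overlapped, and the change ran from 0.049 without WT replicate 2 to 0.30 without Oa1-/- replicate 1. That of Cox6b2 ran from 0.062 without WT replicate 2 to 0.16 without WT replicate 1. Cox7b2 was not tested, since its signals of 3.91, 1.59 and 13.6 in WT and of 20.6, 15.5 and 22.2 in Oa1-/- all lay below the highest bacterial control of 39.3.

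Complex V, the ATP synthase, has a catalytic F1 head in the matrix, a ring of c subunits in the membrane, and a stalk that holds the head still. The 5 genes of the F1 head (Atp5a1, Atp5b, Atp5c1, Atp5d and Atp5e) had changes from −0.051 to 0.041 with a median of −0.022, 2 of them above 0. The 12 other genes had a median of 0.089, with 9 above 0. The difference between these sets was not tested. WT replicate 3 was the highest array for 6 of the 17 genes and Oa1-/- replicate 1 for 10, and without WT replicate 3 all 17 changes were above 0.

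Of the 4 genes of the stalk, Atp5o, Atp5j and Atp5h had the highest changes of complex V, while Atp5pb, subunit b, had one of 0.0045 on its brightest probe set and 0.19 on the other (1426742_at, unadjusted limma p 0.120). Atp5h, subunit d of the stalk, read 9044, 9299 and 9792 on the WT arrays against 10410, 10574 and 9866 on the Oa1-/- arrays. The groups did not overlap, with a log2 change of 0.13 (SE 0.069, unadjusted p 0.0885, adjusted p = 0.985 in limma). Its further probe set 1423676_at read 7799, 8030 and 8586 on the WT arrays against 10270, 8845 and 8868 on the Oa1-/- arrays (log2 change 0.19, unadjusted limma p 0.0481), also without overlap. Both Atp5h probe sets therefore placed the genotypes in the same order. Atp5j, coupling factor 6, read 7418, 6805 and 7011 on the WT arrays against 8436, 7623 and 7277 on the Oa1-/- arrays (log2 change 0.13). Atp5o, the oligomycin sensitivity protein, read 5643, 6014 and 6289 on the WT arrays against 7168, 6862 and 5834 on the Oa1-/- arrays (log2 change 0.14). In both genes Oa1-/- replicate 3 lay within the WT range. Without Oa1-/- replicate 1 the changes were 0.074 for Atp5j and 0.082 for Atp5o, and without Oa1-/- replicate 3 they were 0.18 and 0.23. The change on the further Atp5o probe set 1437164_x_at was −0.036.

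Atp5g1, Atp5g2 and Atp5g3 encode the same mature c subunit with different import sequences. Atp5g3 read 13406, 14073 and 14320 on the WT arrays against 15920, 14832 and 14439 on the Oa1-/- arrays, without overlap (log2 change 0.11, SE 0.070, unadjusted p 0.148, adjusted p = 0.985 in limma). Atp5g2 read 6212, 6164 and 7025 on the WT arrays against 7399, 6552 and 6530 on the Oa1-/- arrays (log2 change 0.078). Atp5g1 read 2481, 2652 and 2781 on the WT arrays against 2710, 2621 and 2533 on the Oa1-/- arrays (log2 change −0.0080). The Atp5g2 change was 0.019 without Oa1-/- replicate 1 and 0.14 without WT replicate 3, and that of Atp5g3 was 0.071 without Oa1-/- replicate 1. Only Atp5g3 of these separated the groups on its brightest probe set, and the differences among the 3 genes were not tested.

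Further complex V probe sets did not lean the same way. Of 13, 5 had a change above 0 and 8 below, with a median of −0.016. Dim ones among them were those of Atp5c1, Atp5j2 (1443495_at) and Atp5g2, with changes below 0, and of Atp5g1, with a change above 0. Their mean signals over the arrays were 252, 173, 94.5 and 89.4. Those of the brightest probe sets were 11009, 10007, 6647 and 2630, in the same order. Whether the dim ones read the main transcript was not tested. Brighter further probe sets also had changes below 0, from −0.22 to −0.0063. They were those of Atp5a1 (1423111_at and 1420037_at), Atp5d (1423716_s_at), Atp5k (1434053_x_at) and Atp5o (1437164_x_at), with mean signals of 1504 to 6591. Atp5c1, the gamma subunit that turns inside the head, had a change of 0.032 on its brightest probe set, with 10662, 10489 and 11429 on the WT arrays against 12800, 10592 and 10084 on the Oa1-/- arrays. Its other probe set 1438809_at read 348, 283 and 260 on the WT arrays against 129, 243 and 249 on the Oa1-/- arrays, a change of −0.53 (unadjusted limma p 0.0659). Another probe set of Atp5a1, the alpha subunit, gave a mean of 1617 ± 53.2 for WT and 1392 ± 129 for Oa1-/- on 1420037_at (SD, n = 3; log2 change −0.22, unadjusted limma p 0.0464, adjusted p = 0.985), while its brightest probe set had a change of −0.022.

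Over the subunit genes, 48 had more than 1 tested probe set. For 31 of them all further probe sets shared the sign of the brightest, and for 17 at least 1 did not. Of the 77 further probe sets, 55 had a change above 0 and 22 below, with a median of 0.058. The agreement was widest in complex IV, where 14 of 15 further probe sets were above 0, and complex I had 29 of 38. Probe sets of a gene were read on the same arrays, so they do not repeat the animals. Whether all probe sets of a gene read the same transcript was not tested.

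**Figure D5:**
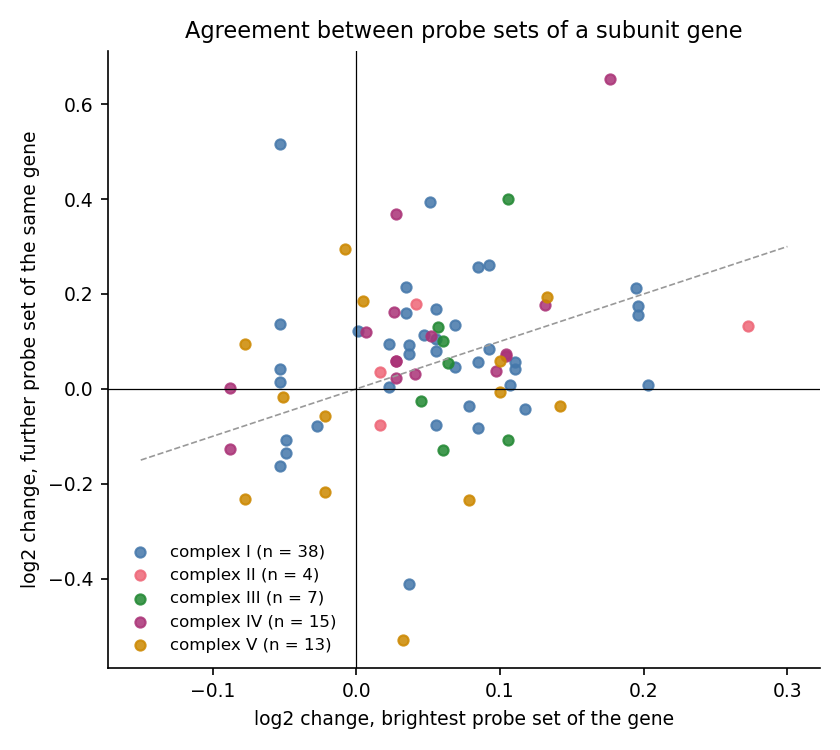
Log2 change (Oa1-/- minus WT) on each further tested probe set of a subunit gene against the change on the gene's brightest probe set, 1 point a further probe set, coloured by complex; the dashed line marks equal changes. Of the 77 points, 55 lie above 0 on the vertical axis, and they reach from −0.53 (Atp5c1) to 0.65 (Cox8c).

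The transcript of the mitochondrial genome that the array named went the other way. ND5, a proton-pumping core subunit of complex I, was read by 1 probe set (1426088_at) at 12343, 13986 and 15537 on the WT arrays against 9633, 13019 and 9837 on the Oa1-/- arrays. Oa1-/- replicates 1 and 3 lay below every WT array and Oa1-/- replicate 2 above WT replicate 1. The log2 change was −0.37 (SE 0.13, unadjusted p 0.0215, adjusted p = 0.985 in limma), and it ran from −0.51 to −0.29 with 1 array left out. The other transcripts of the mitochondrial genome were not analysed here, and WT replicate 3 was the highest array for ND5 as Oa1-/- replicate 1 was the lowest.

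In their median changes, genes that build and feed the complexes were close to the background of all genes. Of the 44 assembly factors on the array 43 were tested, with 23 above 0 and 20 below, a median of 0.023 and 0 at an unadjusted limma p below 0.05. The 8 Ndufaf genes among them had a median of 0.062, with 6 above 0, from −0.084 for Ndufaf6 to 0.20 for Ndufaf2. Enzymes of the citric acid cycle and pyruvate dehydrogenase had 8 of 17 above 0 and a median of −0.016, with 0 at that threshold, and 22 regulators of mitochondrial transcription and replication had 13 above 0 and a median of 0.011, also with 0. Electron carriers and enzymes of ubiquinone synthesis, listed together with Cyc1 of complex III, had 8 of 17 above 0. The median of −0.026 was the value of Cyc1. In the same list Pdss2, which with Pdss1 makes the side chain of ubiquinone, read 413, 394 and 395 on the WT arrays against 545, 606 and 479 on the Oa1-/- arrays. Its groups did not overlap (log2 change 0.42, SE 0.12, unadjusted p 0.00912, adjusted p = 0.985 in limma). In each of these lists 0 genes had an adjusted p below 0.05 in limma.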

How the data were processed

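The deposited intensity values are MAS5 signals made by the authors, 1 per probe set and array, per the submitters' processing notes, with no version or detection calls in the sources used here. All arrays shared one scale, since the mean after trimming 2% at each end was 500.002 on all 6. The table held 45101 probe sets, 64 of them controls, which were left out of the tests. The platform annotation gave 1 symbol to 34945 probe sets, several to 932 and none to 9160. Probe sets with several symbols named no gene.

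Values were taken as log2(signal + 16). The 27022 probe sets with a mean above the 40th percentile were fitted in R 4.3.3 with limma 3.58.1 (eBayes with an intensity trend, no covariate), with Benjamini-Hochberg adjustment and a threshold of 0.05. The code was tested on simulated data. Differences between complexes were described by counts and medians, with no test. The number of arrays, 3 per genotype, limits the precision.

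The members and lists were chosen with earlier results of these data known. Genes were named by a rule: complex II, the 4 smallest p and 2 brightest genes of each other complex, an unadjusted p below 0.05, isoform sets, and probe sets that disagreed in sign. Alternatives were other pseudocounts, filters, normalizations, variance settings, probe set choices and complex assignments, the replicate number as a block, and leaving out arrays. A comparison of isoform protein sequences was not run.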

Additional observations from a re-analysis of the deposited data

How the results depend on the processing

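Of 114 medians of complexes and of all subunits under the alternatives, 112 were above 0 and 2 below. With 1 array left out the medians ran from 0.014 to 0.13 over all subunits, 0.0085 to 0.13 for complex I, −0.021 to 0.12 for II, 0.014 to 0.13 for III, −0.012 to 0.14 for IV and 0.011 to 0.13 for V. The genes above 0 then numbered 1 to 4 of complex II, 5 to 8 of III, 8 to 17 of IV and 9 to 17 of V. Without WT replicate 3 and Oa1-/- replicate 1 together 2 complex II genes were above 0. Quantile normalization took the median of all subunits to 0.040 while that of all genes was 0.012, and median centring took them to 0.094 and 0.034.

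The count of probe sets with an adjusted p below 0.05, 0 here (1109 at an unadjusted p below 0.05), was 2 with median centring and 2 with array weights; no named member passed under any alternative. The unadjusted count was 1968 with no filter, 3076 with array weights and 607 when only signals above the 70th percentile were kept. The replicate numbers did not pair the arrays (correlations of −0.29, 0.16 and −0.23), and with the number as a replicate block 885 probe sets had an unadjusted p below 0.05 and 0 passed.

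Of 37 named members tested, 20 kept their sign under every alternative run and 17 did not, all with changes of at most 0.12 in size. With 1 array left out the changes ran from −0.070 to 0.10 for Atp5c1, −0.051 to 0.031 for Atp5g1, −0.012 to 0.14 for Cox4i1, −0.088 to 0.26 for Cox4i2, −0.065 to 0.086 for Cox6a1, −0.11 to 0.32 for Cox6a2, −0.053 to 0.14 for Cox6b1, −0.16 to 0.12 for Cox7a1, −0.032 to 0.15 for Cox7a2, −0.19 to 0.012 for Cox7a2l, −0.052 to 0.14 for Ndufa1, −0.11 to 0.036 for Ndufs8, −0.022 to 0.049 for Sdha, −0.048 to 0.175 for Sdhb, −0.020 to 0.13 for Sdhc and −0.0083 to 0.13 for Uqcrb. Without both arrays that led the principal components the sign turned for Atp5c1 (−0.033), Atp5g1 (0.0066), Cox6a1 (−0.021), Cox7a1 (0.20), Ndufs8 (0.0030), Sdha (−0.0091) and Sdhb (−0.023). Averaging the probe sets of a gene gave dim ones the same weight as bright ones. The sign then turned for Atp5c1 (−0.25), Atp5g1 (0.14), Atp5g2 (−0.078), Ndufs8 (0.082) and Sdha (−0.0079). With quantile normalization it turned for Cox6a1 (−0.037), Cox6b1 (−0.0091) and Sdha (−0.0046), with array weights for Cox6a1 (−0.021), Cox6a2 (−0.11) and Cox7a1 (0.16), and with median centring for Atp5g1 (0.023). The cause was not tested.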
